A study of Mus musculus with 16 samples.

Results

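Cytosolic ribosomal protein genes encode the proteins of the small and large subunits of the ribosome that translates nuclear messages. They were taken from the count table as protein-coding genes whose symbol is Rpl or Rps followed by a number and nothing, a, x or l, together with Rplp0, Rplp1, Rplp2 and Rpsa. By this rule 80 of the 55536 genes in the table were members, 31 of the small subunit and 49 of the large. Pseudogenes and the Rps6k kinases were left out, and Rps4l, Rpl6l and Rpl32l fell away because the annotation gives them as processed pseudogenes. The rule reads symbols and annotated gene types and no measured value.

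RNA-seq was made from mice labelled KLF K74R and mice labelled KLF WT, in 3 kinds of sample: cells labelled MSC, tumors and bone marrow. There were 2 K74R and 2 WT libraries of MSC, 3 K74R and 3 WT libraries of tumors, and 3 K74R and 3 WT libraries of bone marrow. The stated question is which genes differ between K74R and WT mice within each kind of sample. K74R denotes arginine in place of lysine. KLF is all that the labels give as the gene, and the sample titles call the K74R mice KO. Tumors carry the label of MC38, an established mouse colon adenocarcinoma line, and had a volume of at most 1000 mm3. Whether the genotype given for a tumor is that of its host alone is not stated in the labels. In the deposited table the columns of all 3 WT tumors end in an R that K74R tumor columns lack, and those of WT MSC hold KCF where K74R MSC hold KLF. The meaning of these marks is not given, and they cannot be told apart from genotype in tumors and MSC. The labels give neither the age, sex and strain of the mice, nor how MSC were obtained, nor whether replicates came from separate animals. If they did not, p-values measure a spread that is in part technical.

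Libraries held 14067259 to 18923751 counts, so a count of 0 allows up to 0.148 to 0.230 CPM (3 counts; counting error only, because PCR copies of a molecule cannot be told apart). CPM are counts per 1000000 of a library's total after trimmed mean of M-values (TMM) scaling. The spread between replicates exceeded counting noise in all 6 groups. Erythroid markers summed to between 35699 and 46953 CPM in bone marrow, and mesenchymal markers to between 12689 and 17330 CPM in MSC. The MSC libraries also held macrophage markers, at 2341 to 4294 CPM in K74R and 6848 to 8687 CPM in WT, with all 7 genes detected in each library. In tumors the 5 epithelial markers summed to 4.06 to 8.19 CPM, so an epithelial identity was barely visible in the libraries labelled as adenocarcinoma cells. In these bulk samples fewer cells of a type and less RNA per cell cannot be told apart.

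Each ribosomal protein is needed in a fixed number of copies per ribosome, and its messages are among the most abundant of a cell. Most of these messages begin with a run of pyrimidines, the 5′ terminal oligopyrimidine (TOP) tract, through which the mTOR pathway governs their translation. A few members have paralogs with restricted expression: Rpl3l in heart and skeletal muscle, Rpl10l in the testis, and Rpl39l, best known from the testis. Rps27l is a paralog of Rps27 and a target of p53, and Rpl22l1, whose symbol lies outside the rule, is a paralog of Rpl22. In humans and mice the erythroid lineage is sensitive to the dose of some ribosomal proteins, Rps19, Rpl5 and Rpl11 among them.

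Rpl39l and Rps27l are paralogs within the symbol rule that were called higher in MSC than in bone marrow. Rpl39l, with 0 to 9 counts in each bone marrow library, had to differ, and the libraries of Rps27l overlapped between MSC and bone marrow. The promoters below are shown for both paralogs, for their parents, and for a pair of members with long pyrimidine runs. They come from RefSeq on GRCm38.p6, each running from 50 bases before a transcription start through the first 25 transcribed bases, 5′ to 3′ on the gene's strand. Capitals mark runs of at least 8 pyrimidines.
Rpl39l: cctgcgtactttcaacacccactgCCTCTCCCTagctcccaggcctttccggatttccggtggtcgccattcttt
Rpl39: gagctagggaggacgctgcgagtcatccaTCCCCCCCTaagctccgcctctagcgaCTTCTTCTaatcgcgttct
Rps27l: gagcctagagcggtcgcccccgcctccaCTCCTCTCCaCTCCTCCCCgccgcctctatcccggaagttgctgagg
Rps27: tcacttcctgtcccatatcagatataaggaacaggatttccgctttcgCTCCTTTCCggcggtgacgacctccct
Rpl15: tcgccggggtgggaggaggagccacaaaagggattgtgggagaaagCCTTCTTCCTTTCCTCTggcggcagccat
Rpl27a: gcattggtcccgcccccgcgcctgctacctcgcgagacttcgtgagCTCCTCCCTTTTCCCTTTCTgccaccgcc
In order, the windows are chr16:10170178-10170252 (plus strand), chrX:37085198-37085272 (minus), chr9:66946036-66946110 (plus), chr3:90213624-90213698 (minus), chr14:18270962-18271036 (minus) and chr7:109519145-109519219 (plus). A run of pyrimidines crosses the annotated start in Rps27, Rpl15 and Rpl27a. In Rpl39l and Rps27l the runs lie wholly upstream of it, and Rpl39 has a run on either side. The RefSeq start used lies 405 bases from the GENCODE gene start for Rpl15, 180 for Rpl39 and 48 for Rpl27a, and within 3 bases for the other genes, so where the runs lie depends on the annotation.

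Of the 80 members, 60 matched the RefSeq promoter table by symbol. A run of at least 8 pyrimidines within 20 bases on either side of a start, on the transcribed strand, was present in 32 of these 60 (53.3%) and in 6466 of 27025 genes in the table (23.9%). Over the full 300 bases, the letters CCGGAAG, which hold the core bound by ETS factors, were found on either strand in 25 members (41.7%) and 2683 genes (9.93%). CCNCNCCC, letters of the motif bound by KLF factors, was found on either strand in 38 members (63.3%) and 14019 genes (51.9%). The letters TATAAA on the transcribed strand were found in 5 members (8.33%) and 2641 genes (9.77%). A match describes the letters in the window and says nothing of binding.

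Members took between 2.12% and 5.85% of the counts of a library, with 95% Wilson intervals no wider than 0.0112 percentage points to either side. The share was 4.06% and 3.21% in the K74R MSC libraries, against 2.25% and 2.12% in WT MSC. It was 4.76%, 5.25% and 5.85% in K74R tumors, against 4.27%, 4.28% and 4.59% in WT tumors. It was 3.08%, 3.37% and 2.92% in K74R bone marrow, against 3.09%, 3.47% and 3.72% in WT bone marrow. Genotypes did not overlap in MSC and in tumors, where K74R was higher, and they overlapped in bone marrow. By tissue the share was 2.91% ± 0.908 in MSC (SD, n = 4), 4.83% ± 0.615 in tumors (n = 6) and 3.27% ± 0.296 in bone marrow (n = 6).

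**Figure D1:**
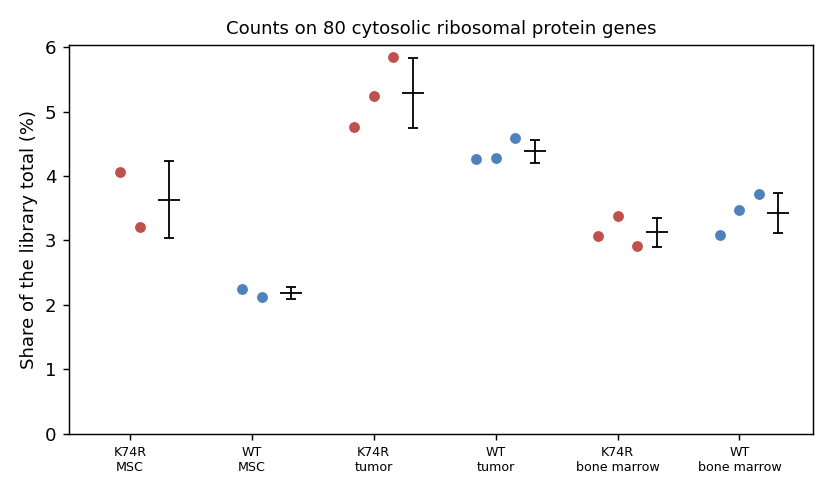
Share of a library's counts taken by the 80 cytosolic ribosomal protein genes (percent, vertical axis) by tissue and genotype, K74R left of WT; points are libraries, with the group mean and SD. K74R MSC sat at 3.21% and 4.06%, above both WT MSC libraries, and K74R tumors sat between 4.76% and 5.85%.

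Most members were abundant in every tissue. Their median level was 368 CPM in MSC, 462 CPM in tumors and 386 CPM in bone marrow, and 72, 73 and 72 of the 80 stood above 100 CPM there. Per kilobase of annotated transcript, the median was 497, 674 and 539 CPM. The 3 highest members per kilobase were Rpl10 (1149 CPM per kb), Rps2 (1120) and Rpl41 (1069) in MSC. They were Rpl41 (1879), Rps2 (1596) and Rplp0 (1513) in tumors, and Rpl41 (1088), Rps4x (998) and Rps6 (948) in bone marrow. Rpl10 lies at the tRNA-binding face of the large subunit, Rps2 near the entry of the message into the small subunit, and Rpl41 is the smallest ribosomal protein. Rplp0 anchors the stalk that recruits elongation factors, and Rps6 is the small subunit protein phosphorylated by S6 kinases. Rpl10l had 0 counts in all 16 libraries. At the low end, Rpl3l had 0.0573, 0.239 and 0.559 CPM per kb in MSC, tumors and bone marrow, and Rpl39l had 0.182 and 0.407 CPM per kb in tumors and bone marrow. Rpl24, a large subunit protein at the bridge between the subunits, stood at 2.20 CPM per kb in MSC.

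Low values of some members touch on how reads were assigned. Exons of other genes on the same strand cover 47.0% of the exons of Rpl24, 35.4% of those of Rpl13a and 20.6% of those of Rps10, so their counts are uncertain. Pseudogenes named for members numbered 297 rows for 59 members and held 0.623% as many counts as all members together. For Rps10 they held 45.3% as many as the gene itself, and for 17 members more than 1%. Adding pseudogene counts to those of their members moved no median of members, in any of the 9 comparisons, by more than the spread of replicates.

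Members stood higher together in K74R MSC than in WT MSC, with Rpl39l alone past the threshold. The log2 fold change was above 0 in 78 of the 78 members tested, where it was in 50.1% of all genes. Its median over members was 0.72 (a fold of 1.65), and its range 0.22 to 1.83. The median over all other genes was 0.00. Both K74R libraries lay above both WT libraries in 76 of the 78, where 30.4% of all genes tested did so. At an unadjusted p under 0.05, 62 were higher and 0 lower, where 13.5% of all genes were higher and 12.5% lower. At an adjusted p under 0.05, 1 of 78 rose, where 2.05% of all genes did. DESeq2 called 38 members higher (6.83% of all genes) and limma-voom 1 (1.8% of all genes). In 1 model of all 16 libraries, which shares its estimate of the spread with the other tissues, 67 passed (13.2% of all genes). Of 31 small subunit members 22 were higher at the unadjusted level, with a median of 0.75, and of 47 large subunit members 40, with a median of 0.71. Members are read from the same 4 libraries and are not replicates of each other.

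Rpl39l (ENSMUSG00000039209, chr16:10170226-10174911, plus strand) encodes a paralog of Rpl39, a short protein that lines the exit tunnel of the large subunit. Rpl39l stood at 32.5 and 22.7 CPM in K74R MSC, against 8.24 and 7.25 CPM in WT MSC. Both K74R libraries were above both WT libraries, with means of 27.6 ± 6.91 and 7.75 ± 0.701 CPM (SD, n = 2 each) and a log2 fold change of 1.83 (SE 0.27, adjusted p = 0.0352). Unless another tool is named, tests are edgeR's quasi-likelihood tests, with Benjamini-Hochberg adjustment over all genes tested. The call depended on single libraries and was lost without K74R library 1 or without WT library 2. Each of these fits left 1 library in a group, so counts of members passing in them are not read. The median over members was 0.54 without K74R library 1, 0.71 without WT library 2 and 0.89 without K74R library 2. Its parent Rpl39 stood at 267 and 209 CPM in K74R MSC, against 144 and 146 CPM in WT MSC (log2 fold change 0.71, SE 0.20, adjusted p = 0.106).

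Rpl3, a core protein of the peptidyl transferase region, had the next largest log2 fold change among members named here, 1.29. It stood at 1258 and 971 CPM in K74R MSC, against 420.1 and 489 CPM in WT MSC, groups that did not overlap, but its adjusted p was 0.0530. Rps2 had 1908 and 1235 CPM in K74R MSC, against 606 and 723 CPM in WT MSC, with 1.24 (SE 0.30, adjusted p = 0.0783). For Rplp0 the values were 1661 and 1145 CPM in K74R MSC, against 667 and 686 CPM in WT MSC, with 1.05 (SE 0.27, adjusted p = 0.0888). In each of these genes K74R library 1 was the highest of the 4 libraries. The other stalk proteins, Rplp1 and Rplp2, had log2 fold changes of 0.95 (adjusted p = 0.0884) and 0.67 (adjusted p = 0.109). Rps19, which takes part in the maturation of the small subunit, gave 0.83 (adjusted p = 0.0898). Rpl5 and Rpl11, which ride with 5S ribosomal RNA into the large subunit and can bind Mdm2, gave 0.80 (adjusted p = 0.100) and 0.76 (adjusted p = 0.107).

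Other values moved with genotype in the same MSC libraries. The 8 proliferation markers summed to between 1053 and 1468 CPM in K74R MSC, against 263 to 396 CPM in WT MSC, and 6 of 8 rose, where 2.05% of all genes did, with a median log2 fold change of 1.97. Of the 7 macrophage markers, 1 fell, where 1.29% of all genes did, with a median of -1.32. The leukocyte gene Ptprc stood at 84.5 to 219 CPM in K74R MSC, against 218 to 433 CPM in WT MSC, groups that overlapped. The 10 mesenchymal markers had a median of 0.16, with 0 past the threshold, but single genes lay apart in opposite directions. Col1a1, a fibrillar collagen chain, stood at 3348 to 5234 CPM in K74R MSC, against 1057 to 2128 CPM in WT MSC, and Col1a2 at 5858 to 6613 CPM in K74R, against 2255 to 3614 CPM in WT. The chemokine gene Cxcl12 stood at 1557 to 3083 CPM in K74R MSC, against 5095 to 8913 CPM in WT MSC. Transcript length moved too: other genes with a transcript under 1000 bases had a median of 0.23 (1549 genes), against -0.02 for longer ones (12842 genes), and with offsets for length and GC content the member median was 0.53. The part of these shifts in the members' difference was not tested.

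**Figure D2:**
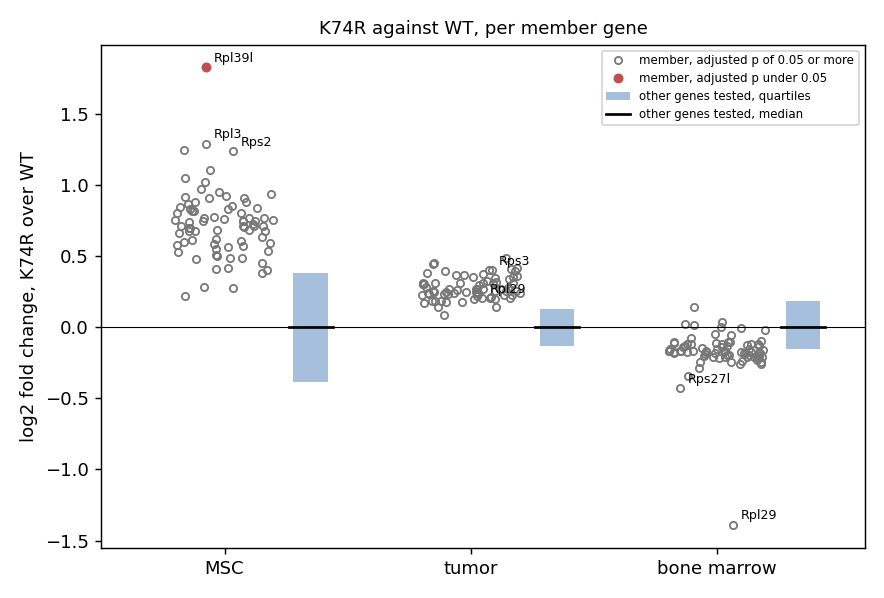
Log2 fold change, K74R over WT, of each member tested, in MSC, tumors and bone marrow (points), beside the quartiles (box) and median of all other genes; members past an adjusted p of 0.05 are red. In MSC the members lie between 0.22 and 1.83 with Rpl39l the red point, in tumors between 0.08 and 0.49, and in bone marrow mostly just below 0.

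Other genes of translation and ribosome assembly in MSC were set beside the members. Of 20 other genes with TOP tracts, 1 rose, where 2.05% of all genes did, and their median log2 fold change was 0.59. The riser was Hnrnpa1, an RNA-binding splicing factor, at 474 ± 19.3 CPM in K74R MSC, against a mean of 204 CPM in WT MSC (SD, n = 2 each; log2 fold change 1.21, SE 0.20, adjusted p = 0.0443). No gene passed in the other lists: 77 mitochondrial ribosomal proteins (73 positive, where 50.1% of all genes were, median 0.37), 66 initiation and elongation factors (0.41), 50 ribosome biogenesis factors (46 positive, 0.38) and 19 genes of RNA polymerase I (0.29). The same held for 10 chaperones of ribosomal proteins (0.63), 18 regulators of ribosomal protein genes (0.07), 4 ribosomal genes outside the symbol rule (0.48) and 3 paralogs outside it (0.86). The member median of 0.72 lay above those of all lists but the last. No test of a list was made.

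Tumor members were also higher in K74R, by less, and none passed. The log2 fold change was above 0 in 77 of the 77 members tested, where it was in 51.2% of all genes. Its median was 0.27 and its range 0.08 to 0.49. At an unadjusted p under 0.05, 63 were higher and 0 lower, where 5.05% of all genes were higher and 6.19% lower. In 45 of the 77 all 3 K74R tumors lay above all 3 WT tumors, where 7.3% of all genes did. With edgeR 0 members passed at an adjusted p under 0.05, as did 0% of all genes in that direction. The smallest adjusted p of a member was 0.267, limma-voom called 0, and DESeq2 called 10 members higher (0.365% of all genes). Beside this, other genes with transcripts under 1000 bases had a median of 0.11, and length and GC offsets gave a member median of 0.17. Macrophage markers summed to between 453 and 677 CPM in K74R tumors, against 771 to 848 CPM in WT tumors, and proliferation markers had a median of 0.11. Their part in the result was not tested.

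The members with the smallest p in tumors were Rps3, Rps16, Rpl26 and Rpl39. Rps3, a small subunit protein at the entry of the message with a second role in DNA repair, stood at 705, 779 and 899.9 CPM in K74R tumors, against 592, 623 and 606 CPM in WT tumors. All K74R tumors lay above all WT tumors, with a log2 fold change of 0.40 (SE 0.09, adjusted p = 0.267). Rps16 had 349 ± 34.2 CPM in K74R tumors and 275 ± 5.90 CPM in WT tumors (SD, n = 3 each; 0.36, SE 0.08, adjusted p = 0.267). Rpl26, which in human cells can bind the p53 message, gave 0.40 (SE 0.10, adjusted p = 0.294) and Rpl39 gave 0.35 (SE 0.09, adjusted p = 0.308). Without K74R tumor 1, which had the lowest share of the 3 K74R tumors, 7 members rose, Rps3 and Rpl26 among them, where 0.119% of all genes did. Rps19, Rpl5 and Rpl11 had log2 fold changes of 0.27, 0.32 and 0.27, and the stalk proteins Rplp0, Rplp1 and Rplp2 of 0.17, 0.30 and 0.18, with adjusted p between 0.340 and 0.560. Among the lists, biogenesis factors (45 of 50 positive) and mitochondrial ribosomal proteins both had a median of 0.11, initiation and elongation factors 0.12 and other TOP genes 0.16, with 0 of each past the threshold.

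Bone marrow members leaned the other way. The log2 fold change was below 0 in 73 of 78 members tested, where it was in 50.1% of all genes. Its median was -0.17 and its range -1.39 to 0.14. With edgeR 0 members fell, where 0.262% of all genes tested did. At an unadjusted p under 0.05, 5 were lower, where 7.99% of all genes were. That share of members, 5 of 78, is near the background. In 6 members all K74R libraries lay below all WT libraries, where 11.9% of all genes did. DESeq2 called 1 member lower (1.24% of all genes) and limma-voom 0 (0.182% of all genes). Biogenesis factors were negative in 50 of 50, with a median of -0.25. At the unadjusted level 30 of them were lower, and 0 were called. Mitochondrial ribosomal proteins were negative in 73 of 77 (median -0.23).

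The 4 members with the smallest p in bone marrow were Rps27l, Rpl34, Rpl37a and Rplp0. Rps27l stood at 39.8, 43.5 and 36.2 CPM in K74R bone marrow, against 48.1, 52.0 and 62.6 CPM in WT bone marrow, groups that did not overlap (log2 fold change -0.43, SE 0.11, adjusted p = 0.124). Rpl34, a large subunit protein, gave -0.34 (SE 0.12, adjusted p = 0.194), Rpl37a, a zinc-binding protein, -0.25 (SE 0.09, adjusted p = 0.211), and Rplp0 -0.24 (SE 0.09, adjusted p = 0.227). One translation factor passed, Eif3j2, a subunit gene of the initiation factor eIF3 with a close copy, at 28.1 ± 17.6 CPM in K74R bone marrow and 1.75 ± 0.154 CPM in WT bone marrow (SD, n = 3 each; 4.02, SE 0.57, adjusted p = 0.0196). Beside these values, B cell markers summed to between 795 and 1139 CPM in K74R bone marrow, against 395 to 769 CPM in WT bone marrow. T cell markers summed to between 53.9 and 65.1 CPM in K74R, against 34.3 to 42.3 CPM in WT. Neutrophil markers summed to between 28271 and 30797 CPM in K74R, against 34039 to 36778 CPM in WT. Their part was not tested.

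The members best known from erythroid disease overlapped between genotypes in bone marrow. Rps19 stood at 212, 211 and 177 CPM in K74R bone marrow, against 211, 219 and 236 CPM in WT bone marrow (-0.13, SE 0.09, adjusted p = 0.442). Rpl5 stood at 736, 853 and 679 CPM in K74R bone marrow, against 749, 847 and 1008 CPM in WT bone marrow (-0.18, SE 0.12, adjusted p = 0.464). Rpl11 stood at 306, 321 and 274 CPM in K74R bone marrow, against 309, 336 and 408 CPM in WT bone marrow (-0.21, SE 0.11, adjusted p = 0.350). In each of the 3 genes K74R library 3 was the lowest of the 6. Erythroid markers summed to between 35984 and 45391 CPM in K74R bone marrow, against 35699 to 46953 CPM in WT bone marrow.

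**Figure D3:**
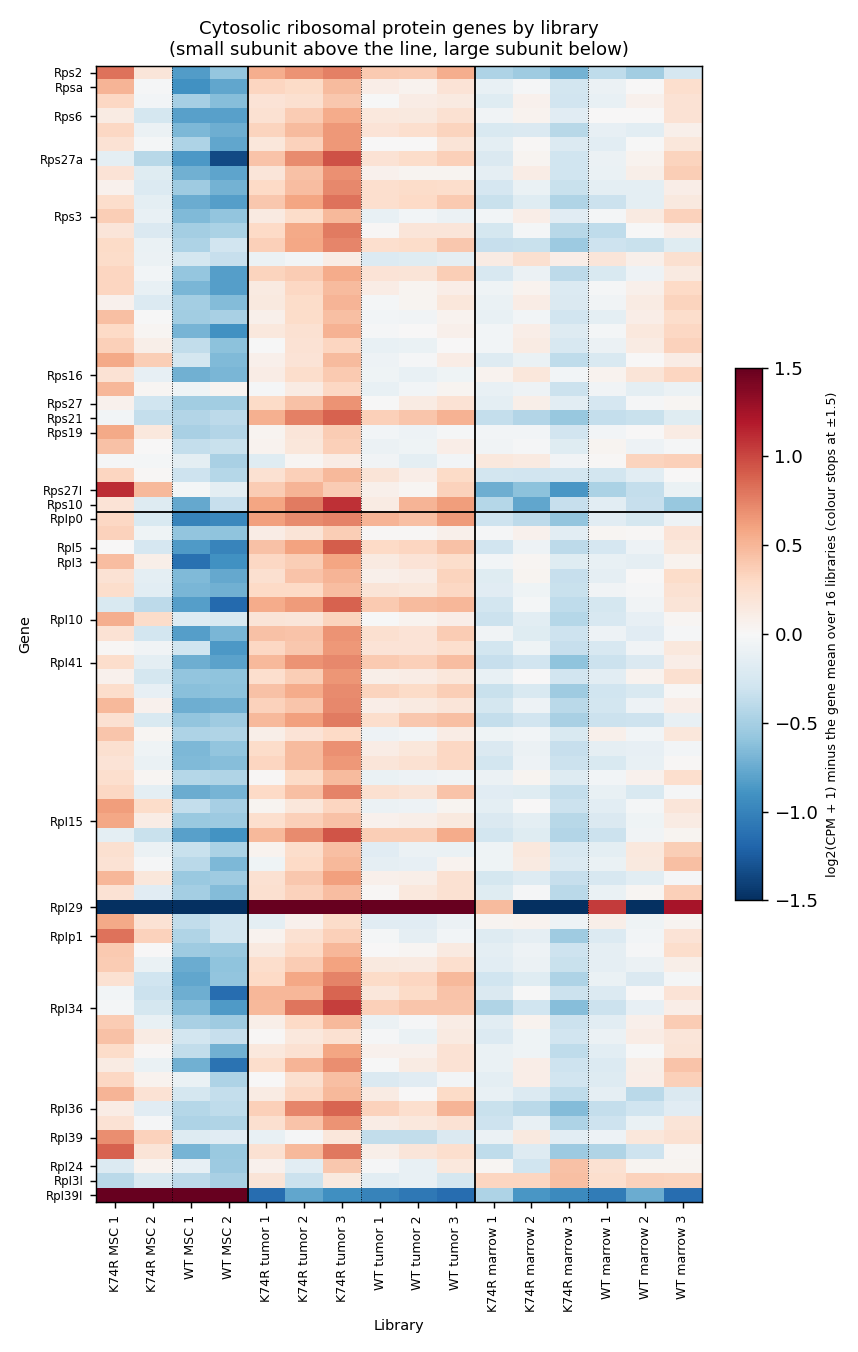
Level of each of 79 members (rows, small subunit above the line, with some rows named) in each library (columns, by tissue, K74R left of WT), as log2(CPM + 1) minus the gene's mean over the 16 libraries, with colours stopping at -1.5 and 1.5. In MSC both K74R columns lie above both WT columns for 76 of the 78 members tested there, and Rpl39l stands high in MSC alone.

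The difference between tissues in the genotype effect was tested directly, in a model of all 16 libraries. The effect in MSC minus that in bone marrow was higher for 65 of 79 members at an adjusted p under 0.05, where 10.8% of all genes tested were, with a median difference of 0.90 on the log2 scale. The 3 members with the smallest p were Rpl3 at 1.30 (SE 0.19, adjusted p = 0.000306), Rplp0 at 1.31 (SE 0.20, adjusted p = 0.000513) and Rps2 at 1.42 (SE 0.23, adjusted p = 0.000754). In bone marrow Rpl3 stood at 892, 932 and 807 CPM in K74R, against 849, 834 and 949 CPM in WT, groups that overlapped. Rps2 stood at 789.8, 751 and 661 CPM in K74R bone marrow, against 830.2, 755 and 914 CPM in WT bone marrow. Rplp0 stood at 1082, 1021 and 889 CPM in K74R bone marrow, against 1186, 1119.6 and 1267 CPM in WT bone marrow. Without K74R MSC library 1 the count was 40, where 6.12% of all genes were higher. All 8 proliferation markers rose in the same contrast and 6 of 7 macrophage markers fell, and their part in the members' difference was not tested.

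Against tumors the MSC effect was higher for 10 of 79 members, where 6.48% of all genes were, with a median difference of 0.47. Rpl3 differed by 1.07 (SE 0.19, adjusted p = 0.00192), Rps2 by 1.02 (SE 0.23, adjusted p = 0.0102) and Rplp0 by 0.89 (SE 0.20, adjusted p = 0.0102). The others were Rpsa (0.87), Rps26 (0.68), Rpl6 (0.64), Rpl10a (0.59), Rps15a (0.70), Rpl15 (0.67) and Rpl27a (0.66). Rpsa is the protein also known as the laminin receptor. Library choice decided this count, which was 42 without K74R MSC library 2, 20 without K74R tumor 3 and 3 without K74R MSC library 1. All genes were higher at 9.33%, 5.62% and 4.08% in those fits. It was 4 without K74R tumor 1 or 2, any 1 of the 3 WT tumors or WT MSC library 2, and 5 without K74R bone marrow library 1 or WT bone marrow library 2, in fits where 4.85% to 6.38% of all genes were higher. Counts of 3 to 5 in 79 members are near that background. In tumors minus bone marrow 0 of 79 members passed with edgeR, where 0.011% of all genes were higher. DESeq2 (0.181% of all genes) and limma-voom (0.011%) also called 0 members. In 79 of 79 members the difference was above 0, where it was in 48.9% of all genes. Rpl39l, counted among the 79, had only 0 to 9 counts in each of these libraries. The median difference over the 79 members was 0.43, and 56 members were higher at an unadjusted p under 0.05, where 5.34% of all genes were. Rpl34 gave 0.75 (SE 0.20, adjusted p = 0.228), Rps27l 0.71 (SE 0.21, adjusted p = 0.268) and Rps16 0.48 (SE 0.15, adjusted p = 0.307). These contrasts share the groups of each tissue and are not independent of each other.

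Between tissues, tumors stood above bone marrow for most members. Of 79 tested, 51 rose and 4 fell at an adjusted p under 0.05, where 41.4% and 40.6% of all genes did, with a median log2 difference of 0.35. In K74R libraries alone 62 rose, where 38.3% of all genes did. In WT libraries alone 28 rose, where 37.1% of all genes did, so that share of members is near the background, and the median was 0.13. Among the risers whose libraries did not overlap, the 6 largest were Rpl29, Rps10, Rps2, Rps21, Rplp0 and Rpl36. Rps2 averaged 1713 ± 126 CPM in K74R tumors and 1473 ± 92.8 CPM in WT tumors, above the 2 bone marrow means of 734 and 833 CPM (log2 difference 1.02, SE 0.10, adjusted p = 2.00e-07). Rplp0 gave 0.91 (SE 0.09, adjusted p = 1.56e-07), Rps21, a small protein of the small subunit, 0.96 (SE 0.08, adjusted p = 1.51e-08), Rpl36 0.89 (SE 0.09, adjusted p = 2.72e-07), and Rps10, whose counts are uncertain, 1.34 (SE 0.19, adjusted p = 1.11e-05). The 4 that fell were Rpl3l at -1.24, Rps9 at -0.25, Rps29 at -0.21 and Rpl39 at -0.19. Rpl3l had 10 to 13 counts in each bone marrow library and 2 to 12 in each tumor. Its fall thus rests on few reads, near the filter on low counts, and is a description. Ribosome biogenesis factors were higher in tumors for 47 of 50 and lower for 1, with a median of 1.08, and mitochondrial ribosomal proteins for 50 of 77 and lower for 6, with a median of 0.42. Among them Utp15, part of the complex that processes the small subunit's RNA, gave 1.46 (SE 0.06, adjusted p = 7.55e-12), and Eif6, which keeps free large subunits from joining, 1.80 (SE 0.08, adjusted p = 7.55e-12).

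MSC stood below tumors for most members. Of 79 tested, 2 rose and 60 fell, where 34.7% and 37.8% of all genes did, with a median log2 difference of -0.52. The risers were Rpl39l and Rpl39, the parent at 0.33 (SE 0.09, adjusted p = 0.00595). Rpl39l, at 0 to 5 counts in each tumor, passed the filter on low counts only through MSC and so had to differ; its fitted log2 difference of 7.27 is a description. The 6 largest falls among members whose libraries did not overlap were in Rpl29 (-4.98), Rpl21 (-1.23), Rps27a (-1.18), Rpl35a (-1.13), Rplp0 (-1.07) and Rpl34 (-1.04). Rps27a encodes ubiquitin fused to a small subunit protein. For Rplp0 every MSC library, at 1661 and 1145 CPM in K74R and 667 and 686 CPM in WT, lay below every tumor, at 2055, 2192 and 2252 CPM in K74R and 1913, 1837 and 2078 CPM in WT. Biogenesis factors had a median of -1.53 in this contrast, with 0 of 50 higher and 49 lower. Within K74R libraries alone 27 members fell instead of 60, where 31.4% of all genes did, so that share of members is near the background, and the median was -0.26. Within WT libraries alone 67 fell, where 34.5% of all genes did.

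**Figure D4:**
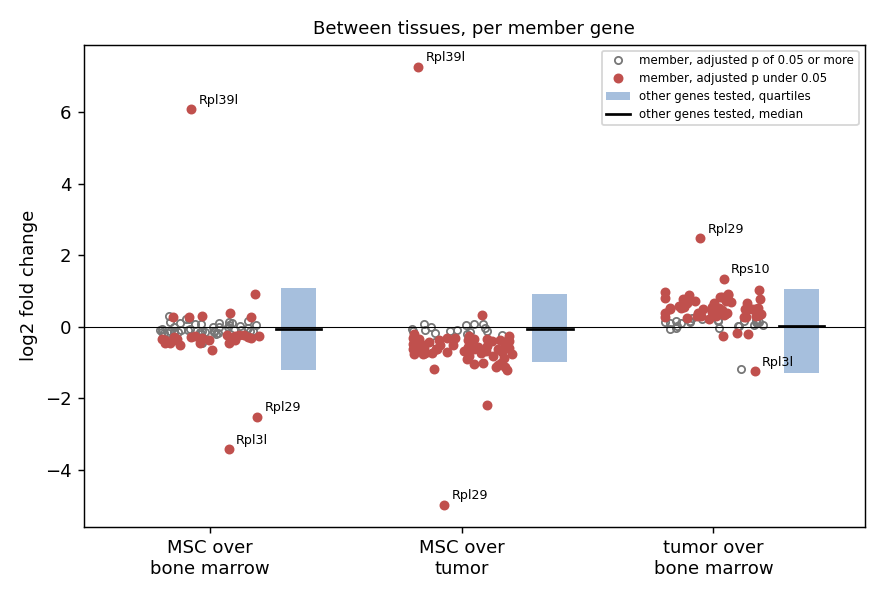
Log2 difference of each member between tissues (points) for MSC over bone marrow, MSC over tumors and tumors over bone marrow, beside the quartiles (box) and median of all other genes. Rpl39l, at 0 to 9 counts per library outside MSC, lies far above the rest in both MSC contrasts (6.07 and 7.27). Rpl29 lies far below most members in both (-2.51 and -4.98), with Rpl3l lower still in MSC over bone marrow.

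MSC against bone marrow gave no single direction. Of 79 members 7 rose and 26 fell, where 36.7% and 40.2% of all genes did, so both shares of members were below the background, and the median was -0.14. In K74R libraries alone the median was 0.30, with 29 risen and 1 fallen, where 34.1% and 35.4% of all genes did, so the risers are near the background. In WT libraries alone it was -0.59, with 1 risen and 67 fallen, where 34.5% and 36.3% of all genes did. With length and GC offsets it was 0.26, with 44 risen and 12 fallen, where 36.6% and 40.9% of all genes did. The risers were led by Rpl39l, at a fitted 6.07, and Rps27l at 0.90 (SE 0.12, adjusted p = 3.56e-06); others were Rps2 (0.39), Rpl10 (0.31), Rplp2 (0.27) and Rplp1 (0.26). Rpl39l alone among the 7 had all MSC libraries above all bone marrow libraries. With 0 to 9 counts in each bone marrow library Rpl39l had to differ, and the size of its fitted difference is uncertain. The same holds for the fall of Rpl3l, at a fitted -3.42, which rests on 0 to 3 counts in MSC and 10 to 13 in bone marrow. The next largest fall was in Rpl29 at -2.51 (SE 0.65, adjusted p = 0.00254), with overlap. The median over members was -0.21 without K74R MSC library 1 and -0.03 without K74R MSC library 2. Each of these fits left 1 K74R MSC library, so counts of members passing in them are not read.

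Rpl29 (ENSMUSG00000048758, chr9:106429454-106431568, plus strand), a large subunit protein whose loss in mice slows growth, differed widely between libraries of the same tissue and between tissues. Rpl29 stood at 17.4 and 18.5 CPM in K74R MSC, against 10.6 and 8.0 CPM in WT MSC. In tumors it stood at 408, 419 and 482 CPM in K74R, against 379, 371 and 397 CPM in WT. In bone marrow it stood at 108, 13.2 and 14.9 CPM in K74R, against 162, 15.6 and 184 CPM in WT. Tumors were thus high and MSC low, while bone marrow held 3 libraries above 100 CPM and 3 libraries under 20 CPM, split across both genotypes. The bone marrow genotype log2 fold change was -1.39 (SE 0.91, adjusted p = 0.454), which did not pass. The tumor over bone marrow value of 2.46 (SE 0.53) was 3.31 without K74R bone marrow library 1.

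Paralogs are given as shares of the counts of paralog and parent, by tissue and with no test. As a share of the counts of both genes, Rpl39l made up 10.3% ± 0.729 in K74R MSC and 5.08% ± 0.493 in WT MSC (SD, n = 2 each). In tumors and bone marrow it had 0 to 9 counts per library, with shares of at most 0.393%. Rps27l made up 34.8% ± 2.89 of the Rps27l and Rps27 counts in K74R MSC and 27.5% ± 1.21 in WT MSC. The share was 21.5% ± 2.50 in K74R tumors and 22.5% ± 1.41 in WT tumors, and 14.9% ± 0.620 in K74R bone marrow and 19.4% ± 1.20 in WT bone marrow (n = 3 each). So the 3 K74R bone marrow shares, up to 15.7%, lay below the 3 WT ones, from 18.1%, whereas in MSC K74R lay above WT. Rps27l itself stood at 146 and 94.4 CPM in K74R MSC, against 65.5 and 60.5 CPM in WT MSC (log2 fold change 0.92, SE 0.25, adjusted p = 0.100), and Rps27 at 250.2 and 194 CPM in K74R MSC, against 165 and 166 CPM in WT MSC (0.42, SE 0.20, adjusted p = 0.263).

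Rpl22l1 stood at 47.9 and 47.8 CPM in K74R MSC, against 23.4 and 14.2 CPM in WT MSC (log2 fold change 1.33, SE 0.28, adjusted p = 0.0613). Its share beside Rpl22 was 16.4% ± 1.71 in K74R MSC and 9.36% ± 1.48 in WT MSC, 28.4% ± 1.11 in K74R tumors and 27.6% ± 1.44 in WT tumors, and 14.5% ± 2.19 in K74R bone marrow and 14.5% ± 1.99 in WT bone marrow. Tumors were above bone marrow for Rpl22l1, 1.27 (SE 0.14, adjusted p = 4.23e-07). Rpl7l1, a paralog of Rpl7, made up 10.3% in K74R MSC and 13.5% in WT MSC, 11.6% in K74R tumors and 12.3% in WT tumors, and 8.97% in K74R bone marrow and 8.28% in WT bone marrow of the counts of the pair. The differences in these shares were not tested. The parents Rpl7, Rpl10, Rps4x, Rpl22 and Rpl36a had log2 fold changes, K74R over WT, of 0.75, 0.62, 0.70, 0.45 and 0.91 in MSC. In tumors they had 0.23, 0.20, 0.22, 0.39 and 0.40, and in bone marrow -0.20, -0.18, -0.17, -0.20 and -0.21, with 0 past the threshold. Rpl36al, beside Rpl36a, and Rps27rt, beside Rps27, had means of 0.255 to 1.15 CPM and 3.67 to 11.6 CPM over the 6 groups. Their mean shares of the pair kept to 0.256% to 0.557% for Rpl36al and 2.17% to 3.36% for Rps27rt.

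**Figure D5:**
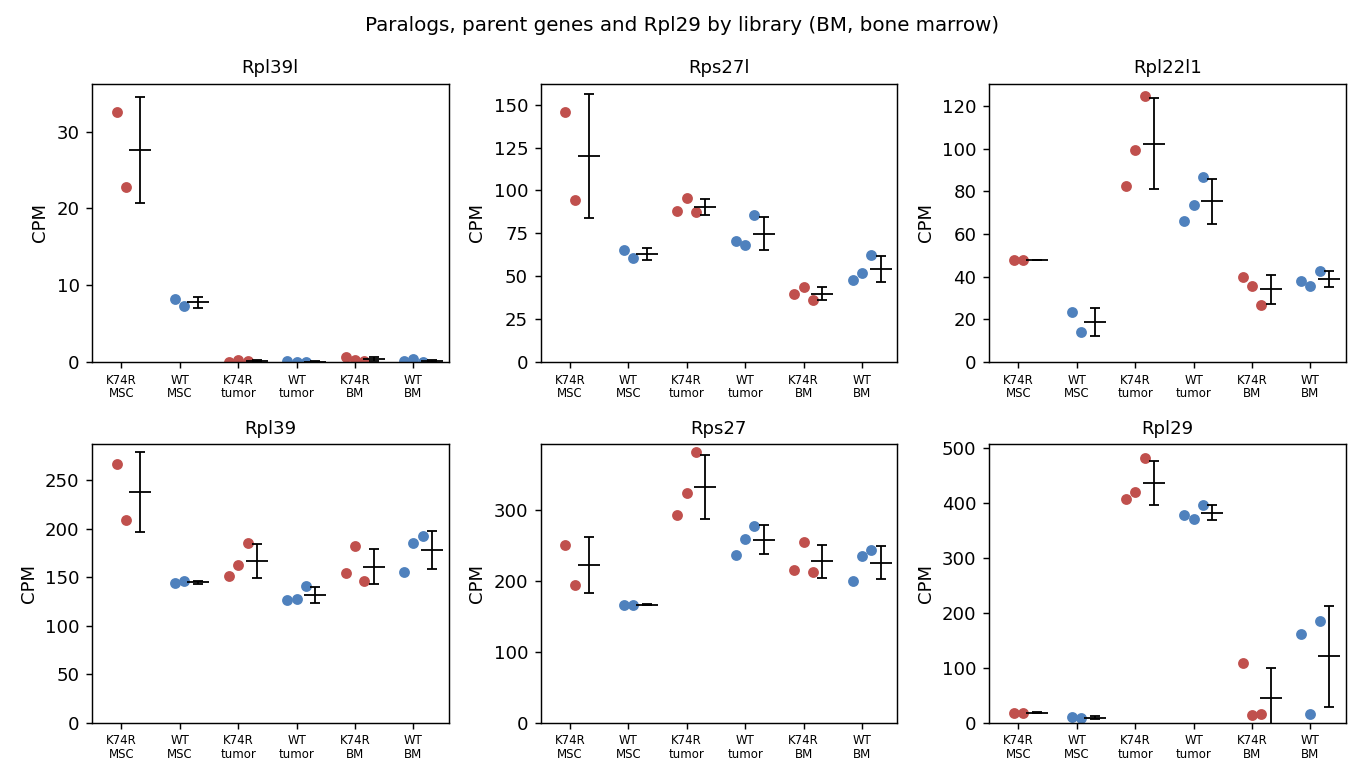
CPM per library (points) with mean and SD (bars, stopped at 0) of 3 paralogs, Rpl39l, Rps27l and Rpl22l1, and of Rpl39, Rps27 and Rpl29, by tissue with K74R left of WT. Rpl39l is near 0 outside MSC, where K74R stood at 22.7 and 32.5 CPM, and Rpl29 in bone marrow splits into a high and a low set of libraries.

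Rpl3l, the muscle paralog of Rpl3, stood at 0.595, 0.115 and 0.550 CPM in K74R tumors, against 0.252, 0.296 and 0.167 CPM in WT tumors. It stood at 0.747, 0.754 and 0.906 CPM in K74R bone marrow, against 0.668, 0.772 and 0.766 CPM in WT bone marrow. In MSC it had at most 3 counts in a library, so its fall against the other tissues rests on very few reads. The 7 skeletal muscle markers summed to between 14.9 and 19.9 CPM in MSC, 4.25 and 91.2 CPM in tumors, and 16.3 and 87.0 CPM in bone marrow; their part in the level of Rpl3l was not tested.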

How the data were processed

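The data are 16 RNA-seq libraries, made with the KAPA mRNA HyperPrep kit from TRIzol RNA, per the labels. The deposited values are raw counts per gene, made by the authors with FastQC, MultiQC, Trimmomatic 0.38, HISAT2 2.1.0 and featureCounts 1.6.0 on GRCm38, per the submitters' processing notes. Strand setting, annotation release and the handling of multiply mapped reads are not stated there. All 55536 rows carry a gene identifier, and all were matched to GENCODE release M21.

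From the counts, CPM were computed on library totals times TMM factors over all 16 libraries. Values per kilobase use the annotated length of a principal transcript, the shortest where several qualify. Testing used edgeR 4.0.16 in R 4.3.3, with filterByExpr for low counts, TMM scaling and the quasi-likelihood test (glmQLFit, glmQLFTest), with Benjamini-Hochberg adjustment over all genes tested and a threshold of 0.05. K74R was compared with WT inside each tissue, in a fit of that tissue's libraries. Tissue contrasts, which average the genotypes, and interactions came from 1 model of 16 libraries in 6 groups. SE is the size of a log2 fold change divided by the square root of F, and folds carry a prior count of 0.125. Marker sums add CPM. The procedure was run on simulated data with known changes, where only the median fold recovered was held to a limit. The simulation used 1 spread for all groups, whereas MSC replicates differed more than those of other groups. It therefore does not test the calls in MSC. Alternatives were other scalings and filters, DESeq2 1.42.0, limma-voom (limma 3.58.1), a replicate block, length and GC offsets, pseudogene counts added, single genotypes and each library left out.

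Members and lists were chosen with earlier results of these data known. Named were all members past the threshold where 12 or fewer, otherwise the 6 largest in each direction without overlap of libraries, and where none passed the 4 with the smallest p. For interactions these were the 3 with the smallest p. Paralogs and their parents, stalk proteins, Rps19, Rpl5, Rpl11 and the 3 highest and lowest members per kilobase were added, with up to 2 risen and 2 fallen genes of a list. Rpl29 levels by library, the remaining members past the threshold in MSC minus tumors, and Rps2, Rpl3 and Rplp0 in MSC were named after their values were seen. The values of 1 member past the threshold in MSC over bone marrow are not reported here.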

Additional observations from a re-analysis of the deposited data

Results flagged for a closer look

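The genotype effect was compared between tissues by a direct test of the difference. This was an interaction contrast of edgeR's quasi-likelihood test over all 16 libraries, with Benjamini-Hochberg adjustment. In tumors minus bone marrow 0 of 79 members passed, where 0.011% of all genes were higher. In MSC minus bone marrow 65 of 79 members were higher at an adjusted p under 0.05, where 10.8% of all genes were, among them Rpl3 (1.30), Rplp0 (1.31) and Rps2 (1.42). In MSC minus tumors 10 of 79 were higher, where 6.48% of all genes were, among them Rpl3 (1.07), Rps2 (1.02) and Rplp0 (0.89). Leaving out 1 tumor or bone marrow library moved the first count to between 59 and 68, where 8.1% to 10.6% of all genes were higher. It moved the second to between 4 and 20, where 5.08% to 6.38% were, so its low end is near the background. Leaving out 1 MSC library left 1 in a group. In those fits the median differences ranged from 0.71 to 1.06 and from 0.31 to 0.62. For Rpl3, Rps2 and Rplp0 both K74R MSC libraries lay above both WT MSC libraries. With 2 or 3 libraries a group, no test for an outlying value within a group was made.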

How the results depend on the processing

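Over the genes named by rule, 913 of 932 alternative values kept their direction and their side of the threshold, 15 newly passed it, 4 lost it and 0 reversed. Of 717 counts and medians of members, 635 stayed within 1.5 times the main count or within 0.16 of the main median, the SD between replicates of a library's median log2 CPM. The cause of the others was not tested, except where fewer libraries entered.

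For MSC, K74R against WT, 43 members rose without a filter on low counts (5.9% of all genes) and 38 with DESeq2 (6.83%). In 1 model of all 16 libraries 67 rose (13.2%). With offsets for length and GC content 2 of 78 rose (2.36% of all genes), which is near the background. With offsets and replicate block 0 rose (1.47%). The median was 0.53 with offsets, with or without the block. For tumors risers numbered 30 without a filter (0.987% of all genes) and 10 with DESeq2 (0.365%). For bone marrow fallers numbered 3 of 79 without a filter (1.13% of all genes). With DESeq2 they numbered 1 of 78 (1.24%), which is near the background. For MSC over bone marrow risers numbered 4 with upper quartile factors (35.1% of all genes), 44 with offsets (36.6%) and 45 with offsets and block (36%). They numbered 29 in K74R alone (34.1%) and 1 in WT alone (34.5%). Fallers numbered 12 with offsets (40.9% of all genes), 9 with offsets and block (39.9%), 1 in K74R alone (35.4%) and 67 in WT alone (36.3%). The median was 0.26, 0.28, 0.30 and -0.59 under those 4. For tumors over bone marrow risers numbered 28 in WT alone (37.1% of all genes), near the background. Fallers numbered 1 with library size alone (36.7%) and 0 in K74R alone (37.6%). They numbered 2 without a filter (25%), with offsets (41.7%) or with offsets and block (41.5%). The median was 0.60 with offsets, with or without the block, 0.54 in K74R alone and 0.13 in WT alone. For MSC over tumors risers numbered 1 with library size alone (29.4% of all genes) or in WT alone (32.8%). They numbered 4 with offsets (34.2%) or with offsets and block (33.4%). Fallers numbered 27 in K74R alone (31.4% of all genes), near the background. The median was -0.74 with library size alone, -0.34 with offsets and block, -0.26 in K74R alone and -0.70 in WT alone. With library size alone the median over all genes also moved, to -0.28 for MSC over tumors, -0.14 for MSC over bone marrow and 0.17 for tumors over bone marrow.

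For the interactions, the MSC minus bone marrow median was 0.68 with offsets and 0.67 with offsets and block. Tumor minus bone marrow had 6 risers without a filter (0.525% of all genes). MSC minus tumor had 22 risers without a filter (4.41% of all genes), 16 with limma-voom (6.73%) and 25 with DESeq2 (8.64%). It had 5 with the replicate block (5.93%) and 6 with offsets and block (7.15%), both near the background. Same-numbered libraries of the 2 genotypes were correlated in their deviations from group means. The values were 0.0135, -0.0451 and 0.0395 in tumors, and 0.180, 0.0738 and -0.0369 in bone marrow. In MSC the value was -0.128 for both replicate numbers, which 2 libraries a group force to be equal. With 2 or 3 libraries a group these values cannot settle whether replicate numbers pair the samples. With the block 1 member rose in MSC, where 3.9% of all genes rose and 3.94% fell, against 2.05% and 1.29% without it. In tumors 0 members passed, where 0.00677% of all genes rose, and in bone marrow 0, where 0.316% fell. A crossed block in MSC, chosen after seeing the data, gave 16 risers, where 6.88% of all genes rose.

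Leaving out 1 library at a time gave ranges of risers and medians. For tumors over bone marrow and MSC over tumors, counts come from fits that left out a tumor or bone marrow library. For MSC over bone marrow and the interactions, ranges of counts come from all 16 fits. Without an MSC library 1 was left in a group, so ends of ranges from those fits are not read. Medians between tissues and for interactions come from all 16 fits. In MSC each fit left 1 library in a group, and medians were 0.54 to 0.89. In tumors 0 to 7 members rose, where 0% to 0.119% of all genes did, with medians of 0.18 to 0.34. In bone marrow 0 rose, where 0.0522% to 2.82% of all genes did, with medians of -0.25 to -0.08. For MSC over bone marrow 4 to 11 rose and 13 to 32 fell, where 34.4% to 36.9% and 37.4% to 40.4% of all genes did. With all MSC libraries kept, 6 to 8 rose and 19 to 28 fell, where 36.2% to 36.9% and 38.9% to 40.4% of all genes did. Medians were -0.21 to -0.03. For tumors over bone marrow 46 to 55 rose and 2 to 4 fell, where 40.5% to 40.9% and 39.6% to 40.2% of all genes did. Medians were 0.30 to 0.39. For MSC over tumors 2 rose and 54 to 62 fell, where 33.9% to 35.2% and 36.8% to 37.9% of all genes did. Medians were -0.62 to -0.43. For tumors over bone marrow, the count of 2 fallers came without K74R bone marrow library 1 or 2, WT bone marrow library 2 or 3, K74R tumor 1 or WT tumor 2. For the interactions risers and medians were 40 to 71 and 0.71 to 1.06 (MSC minus bone marrow), 0 to 0 and 0.35 to 0.51 (tumor minus bone marrow), and 3 to 42 and 0.31 to 0.62 (MSC minus tumor). No fallers appeared in tumors or bone marrow between genotypes in these fits. With 1 MSC library left in a group, its spread was taken as that of the other groups in the fit.

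Among named genes, Rpl39l lost its call in MSC with offsets and block (adjusted p = 0.0525) and without K74R library 1 or WT library 2 (0.136 and 0.0750). Rpl3l lost its tumor over bone marrow call in K74R alone (0.157). MSC had 2 libraries a group. Strand and shared-read settings of the counting limit overlapping genes and copies.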

Other observations

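Values of 2 pseudogenes that the symbol rule leaves out, Rpl3-ps1 and Rps4l, are given here; both were singled out after their values were seen, and no tally over other pseudogenes was made. Rpl3-ps1, on chromosome X, stood at 8.36 and 8.06 CPM in K74R MSC, against 69.2 and 77.9 CPM in WT MSC (log2 fold change -3.17 (SE 0.19, adjusted p = 0.0135), edgeR). In bone marrow it stood at 5.77, 6.85 and 6.20 CPM in K74R, against 55.1, 55.3 and 59.8 CPM in WT (-3.16, SE 0.10, adjusted p = 1.79e-06). In tumors it stood at 9.96, 9.75 and 14.1 CPM in K74R, against 17.6, 13.4 and 13.4 CPM in WT (-0.38, SE 0.18, adjusted p = 0.472). In MSC and bone marrow both genotypes were thus far apart with little spread, and in tumors all libraries lay between those levels. The genotype effect in tumors differed from that in bone marrow by 2.78 (SE 0.22, adjusted p = 1.95e-05) and that in MSC from that in tumors by -2.77 (SE 0.24, adjusted p = 3.23e-06), while MSC minus bone marrow gave 0.01 (adjusted p = 1.000). Beside Rpl3, the pseudogene made up 0.712% ± 0.0623 of the counts of the pair in K74R bone marrow and 6.08% ± 0.147 in WT bone marrow (SD, n = 3 each). The counting of reads shared by near-identical copies is unknown here.

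Rps4l, a transcribed pseudogene related to Rps4x, was mainly an MSC transcript. It stood at 47.2 and 33.9 CPM in K74R MSC, against 16.1 and 19.5 CPM in WT MSC (1.19, SE 0.24, adjusted p = 0.0586). Its means were 1.06 ± 0.620 CPM in K74R tumors and 0.527 ± 0.299 CPM in WT tumors, and 3.54 ± 1.72 CPM in K74R bone marrow and 2.62 ± 0.347 CPM in WT bone marrow (SD, n = 3 each). The MSC over bone marrow log2 difference of Rps4l was 3.13 (SE 0.27, adjusted p = 3.32e-08).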
